A study of Homo sapiens with 4 samples.

Results

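The genes described here are 10 of the 26364 listed in the counts: the precursors of the peptide hormones PTHLH, NPPB, ADM, GAL and STC1, the granule proteins SCG2, SCG5 and VGF, and the prohormone convertases PCSK1 and PCSK2. They were matched by gene symbol. The list was chosen with the difference between the sh60 and LacZ libraries known, so the sizes of that difference in these 10 genes are given as a description, with no test. All 10 passed the filter on low counts. Messenger RNA was sequenced in the human embryonal carcinoma line NTERA2, in 2 groups of 2 libraries that share the line and the catalogued clone. The labels call 1 group BEND3 LacZ, with replicates numbered 1 and 3, and the other BEND3 sh60, numbered 1 and 2; paired values below follow that order. Here sh60 is read as a short hairpin against BEND3, a chromatin protein that represses transcription, and LacZ as its control. That reading is not spelled out in the labels, which also describe the line as a lung carcinoma and do not say how or for how long the hairpin acted. Nothing states that replicates were separate cultures, so the p-values reflect only how far these samples differ, which could be technical.

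Peptide hormones are made as larger precursors that enter the secretory pathway and are cut after pairs of basic residues. In endocrine and nerve cells the convertases PC1/3 (PCSK1) and PC2 (PCSK2) make these cuts inside dense-core granules. A carboxypeptidase then trims the ends and an amidating enzyme finishes many of the peptides. Granins and related proteins such as secretogranin II (SCG2) and VGF help to form the granules and are themselves cut into peptides, while 7B2 (SCG5) is the chaperone that PC2 needs. Cells without such granules use furin and related convertases instead.

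The libraries held 30338285 to 44788461 counts, and 1 count was worth 0.0221 to 0.0333 CPM, that is, counts divided by the TMM-scaled library size on a per-million-count scale. BEND3 itself measured 68.8 and 79.3 CPM in LacZ and 55.7 and 52.0 CPM in sh60, lower in both sh60 libraries (edgeR quasi-likelihood test, adjusted p = 0.00168). Of 16040 genes tested, 28.8% passed an adjusted p of 0.05, 15.8% as higher and 13% as lower in sh60. Of 9 pluripotent cell markers 1 rose (SOX2) and 4 fell (DNMT3B, TDGF1, SALL4 and NANOG). Their sums were 4403 and 4620 CPM in LacZ and 4268 and 4093 CPM in sh60 (without DNMT3B 3523 and 3663, then 3695 and 3548 CPM). LIN28A, at 1414 to 1594 CPM, was the largest part of each sum, and POU5F1 stayed between 910.1 and 1016 CPM. Mean levels went from 115.6 to 82.4 CPM for TDGF1, 139.7 to 112.9 CPM for SALL4 and 108.8 to 91.3 CPM for NANOG. SOX2 went from 121.6 to 150.5 CPM. Of 8 neuroendocrine markers 7 were tested, CHGA measured 3.25 to 3.79 CPM, and CALCA had at most 4 counts in a library. Their summed level was 87.8 and 97.4 CPM in LacZ and 76.2 and 70.7 CPM in sh60, and 1 rose and 1 fell. Without SCG3, the one that fell, the sums were 27.9 and 28.8 CPM in LacZ and 28.9 and 29.8 CPM in sh60. Of 9 fibroblast markers 4 rose (COL1A1, COL1A2, LUM and POSTN) and 2 fell (PDGFRA and THY1), and the summed level was 544.1 and 447.0 CPM in LacZ against 929.1 and 1093 CPM in sh60, including COL1A1 at 141.4 and 84.9 CPM against 553.7 and 684.0 CPM, while DCN stayed between 1.60 and 2.50 CPM. Without COL1A1 the other 8 summed to 402.7 and 362.2 CPM in LacZ and 375.4 and 409.3 CPM in sh60, which overlap. Of 10 neuron markers 5 rose and 2 fell, with sums of 438.6 and 390.3 CPM in LacZ and 526.5 and 537.0 CPM in sh60. Of 10 trophoblast markers 9 were listed and 1 was tested, GATA3, at 23.2 to 37.2 CPM, and CGB and CGB5 had 0 counts in every library. Of 10 endothelial and blood markers 5 were tested, 1 rose and 2 fell, and PTPRC and HBB had 0 counts. The part of these cell types in the results below was not tested. In bulk RNA, fewer cells of a type and less RNA per cell cannot be told apart.

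In all 10 genes the 2 sh60 libraries lay on one side of both LacZ libraries, above them in 6 genes and below them in 4. Among all tested genes 32.1% lay above and 32.3% below in this way. PTHLH, NPPB, ADM and PCSK1, 4 of the 10, differed by at least 1 on the log2 scale, against 6.81% of all tested genes. These shares only describe a list that was selected on the same difference. The median log2 fold change of the 10 was 0.39, and that of all tested genes was -0.0042.

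**Figure D1:**
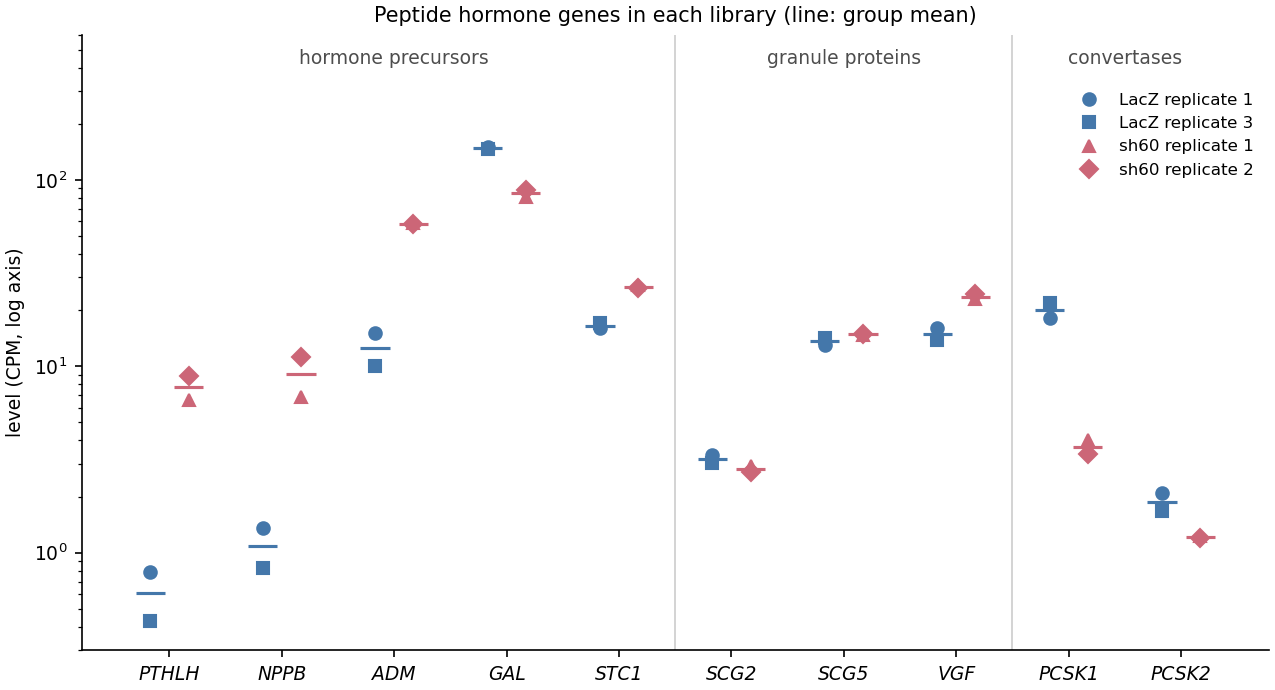
Level of each of the 10 genes (CPM, log axis) in the 2 LacZ and the 2 sh60 libraries; the short lines are group means. PTHLH, NPPB and ADM sit well above LacZ in both sh60 libraries, PCSK1 well below, and SCG2 and SCG5 close to it.

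The widest gaps among the hormone precursors were in genes that were low in LacZ. PTHLH encodes parathyroid hormone-related protein, which acts in placenta, cartilage and mammary gland and raises blood calcium in some cancers. It lies on the minus strand of chromosome 12 (28111017 to 28124916, hg19). It had 33 and 13 counts in LacZ, against 224 and 402 counts in sh60. As levels these were 0.784 and 0.432 CPM, then 6.58 and 8.88 CPM. Both sh60 libraries were far above both LacZ libraries, by a fitted 12.2-fold (log2 fold change 3.61, SE 0.252), which ranks 6 from the top among all tested genes. The LacZ libraries differed 1.81-fold from each other, and the higher of them was replicate 1.

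NPPB, the precursor of the cardiac hormone BNP, which promotes loss of salt and water, lies on the minus strand of chromosome 1 (11917521 to 11918992). Its level was 1.35 and 0.832 CPM in LacZ, from 57 and 25 counts, against 6.87 and 11.2 CPM in sh60. The groups did not overlap, although the replicates of each group differed by about as much from one another (1.63-fold within LacZ and 1.64-fold within sh60). The fitted difference was 8.10-fold (log2 fold change 3.02, SE 0.254), rank 15 from the top.

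ADM encodes adrenomedullin, a vessel-widening peptide known to be induced by low oxygen, on the plus strand of chromosome 11 (10326527 to 10328949). It measured 15.1 and 10.1 CPM in LacZ, against 58.4 and 58.2 CPM in sh60. The sh60 libraries were nearly equal, and the spread lay within LacZ, where replicate 1 was the higher. The fitted difference was 4.59-fold (log2 fold change 2.20, SE 0.139). Without LacZ replicate 1 it was 2.54 and without LacZ replicate 3 it was 1.95 on the log2 scale.

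STC1, on chromosome 8 (23699434 to 23712320), encodes stanniocalcin 1, a glycoprotein hormone that regulates calcium and phosphate in fish and acts locally in mammals. It measured 16.0 and 16.97 CPM in LacZ, against 27.2 and 26.3 CPM in sh60. Replicates agreed closely in both groups, and sh60 was 1.62-fold higher (log2 fold change 0.70, SE 0.109).

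GAL was the one precursor that was lower in sh60. It encodes galanin, a neuropeptide of brain and gut that is also highly expressed in pluripotent cells, on the plus strand of chromosome 11 (68451983 to 68458643). Its level was 149.96 and 146.9 CPM in LacZ, against 80.6 and 88.6 CPM in sh60. The replicates of each group differed by 1.02-fold and 1.10-fold, and sh60 held 57.0% of the LacZ level (log2 fold change -0.81, SE 0.0868).

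Of the granule proteins VGF was higher in sh60 and the other 2 lay close to LacZ. VGF, a nerve growth factor-inducible protein cut into several neuropeptides, lies on the minus strand of chromosome 7 (100805790 to 100808852). Its levels were 16.1 and 13.8 CPM in LacZ, against 22.9 and 24.3 CPM in sh60. It was 1.58-fold higher in sh60 (log2 fold change 0.66, SE 0.117), and the groups did not overlap.

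SCG5 (chromosome 15, 32933870 to 32989298, plus strand) encodes 7B2, the PC2 chaperone. It measured 13.1 and 14.1 CPM in LacZ, against 14.80 and 14.82 CPM in sh60. Its log2 fold change of 0.13 was about as large as its SE of 0.119. SCG2 (chromosome 2, 224461658 to 224467217, minus strand), the precursor of the peptide secretoneurin, measured 3.35 and 3.03 CPM in LacZ, against 2.91 and 2.72 CPM in sh60. Its log2 fold change was -0.19 and the SE 0.191. In both genes the groups did not overlap, but the difference was about the size of its error.

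Both endocrine convertases were lower in sh60, PCSK1 by the wider margin. PCSK1 makes the first cuts in precursors such as proinsulin and POMC, and lies on the minus strand of chromosome 5 (95726040 to 95768985). It had 769 and 656 counts in LacZ, against 137 and 153 counts in sh60, or 18.3 and 21.8 CPM against 4.02 and 3.38 CPM. The sh60 libraries held 18.4% of the LacZ level, a 5.43-fold difference (log2 fold change -2.44, SE 0.149) that ranks 15 among the falls of all tested genes. LOC101929710 overlaps PCSK1 on the other strand and had at most 2 counts in a library, and the counting used strand.

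PCSK2, which follows PC1/3 and needs 7B2, lies on the plus strand of chromosome 20 (17206752 to 17465222). It was low, with 88 and 50 counts in LacZ, against 42 and 54 counts in sh60. The levels were 2.09 and 1.66 CPM in LacZ and 1.23 and 1.19 CPM in sh60, a log2 fold change of -0.64 (SE 0.250). The groups did not overlap, but the value moved from -0.78 to -0.45 depending on the library left out.

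Promoter sequence was matched in RefSeq (GRCh38.p14) for 6 of the 10 genes, PTHLH, ADM, SCG5, VGF, PCSK1 and PCSK2, with 8 start sites in all. NPPB, GAL, STC1 and SCG2 were not matched. In the 250 bases before each start, the cyclic AMP response element TGACGTCA, which reads the same on both strands and is bound by CREB and related factors, was searched because many peptide hormone genes are classic CREB targets. It was found in 2 windows, those of VGF and of the upstream PCSK1 start, against 1.65% of 35116 promoter windows of that length. The matching stretches are shown because these 2 genes share the element and differ in opposite directions, VGF higher and PCSK1 lower in sh60. Each runs 5′ to 3′ on the gene's own minus strand and ends before the first exon base that GENCODE annotates there, and capitals mark the element. The element spans bases -79 to -72 in VGF and -77 to -70 in PCSK1, counted from the RefSeq start. The window of VGF is chr7:101165594-101165719 and that of PCSK1 is chr5:96433281-96433398.
VGF: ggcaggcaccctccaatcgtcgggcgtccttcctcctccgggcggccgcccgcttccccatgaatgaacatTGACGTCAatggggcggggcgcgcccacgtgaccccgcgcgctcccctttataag
PCSK1: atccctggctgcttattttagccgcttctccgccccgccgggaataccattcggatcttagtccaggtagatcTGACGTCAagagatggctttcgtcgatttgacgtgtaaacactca

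Shorter motifs were more common. TGACG, contained in the full element, occurred on either strand in 5 of the 8 windows (21.2% of all promoters), in VGF, SCG5, the upstream PCSK1 start and both PCSK2 starts. ACGTG, the core of the hypoxia response element, occurred on either strand in 4 windows (18.5% of all), in VGF, the upstream PCSK1 start and both PCSK2 starts, and not in the window of ADM. TATAAA on the gene's strand was found in 2 windows (6.80% of all), those of ADM and the downstream PCSK1 start. The AP-1 motif TGANTCA was in 0 of the 8 windows and in 6.57% of all, and GGGCGG, on either strand, was in 7 of the 8 and in 42.6% of all. PTHLH held GGGCGG and none of the others. For PTHLH, ADM and SCG5, exons annotated by GENCODE reach the far end of the 150 bases before the start. Their windows thus hold bases annotated as transcribed, and the motifs found or absent there describe such sequence in part. A match describes letters in this window and is not a measured binding site.

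Levels were compared between genes per length of exon, as TPM (transcript abundance on a scale that sums to the same total in every library, computed here from counts and exon lengths). In LacZ the order of mean TPM was GAL (479.2 ± 11.3, SD, n = 2), SCG5 (27.4 ± 1.25), ADM (19.9 ± 5.76), VGF (14.7 ± 1.67), STC1 (10.7 ± 0.346), PCSK1 (9.60 ± 1.12), NPPB (3.94 ± 1.36), SCG2 (3.11 ± 0.249), PCSK2 (0.934 ± 0.158) and PTHLH (0.580 ± 0.241). The libraries of ADM and VGF overlapped, as did those of NPPB and SCG2, so these neighbours in the order cannot be ranked. In sh60 GAL was still first (282.6 ± 11.3 TPM), followed by ADM (95.4 ± 2.84), NPPB (33.6 ± 10.6), SCG5 (31.0 ± 0.787), VGF (24.1 ± 0.361), STC1 (17.9 ± 0.880), PTHLH (7.60 ± 1.40), SCG2 (2.85 ± 0.211), PCSK1 (1.84 ± 0.274) and PCSK2 (0.625 ± 0.0313). There the libraries of NPPB and SCG5 overlapped. PTHLH went from the last place to the place above SCG2, and PCSK1 from above NPPB to below SCG2.

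Among the 5 precursors chosen here, the mix changed more than the summed level. The 5 precursors summed to 527.3 and 501.4 TPM in LacZ, against 423.3 and 451.0 TPM in sh60. GAL made up 92.4% and 94.0% of the sum in LacZ and 64.9% and 64.4% in sh60. ADM made up 4.55% and 3.16% in LacZ and 23.0% and 20.7% in sh60, and NPPB 0.929% and 0.593% against 6.16% and 9.12%. This sum leaves out other precursors, of which 36 were tested, and by the edgeR test 8 rose and 1 fell. NTS, the neurotensin precursor and 1 of those that rose, measured 150.4 and 119.8 TPM in LacZ and 229.7 and 209.5 TPM in sh60. It was above ADM in every library, so the sum and its shares describe only the 5 genes. Among 7 convertases that cut at basic sites, FURIN was the most abundant by TPM in every library, at 67.2% and 64.1% of the sum in LacZ and 73.9% and 73.9% in sh60. PCSK1 held 6.87% and 8.71% of that sum in LacZ and 1.61% and 1.18% in sh60, while PCSK2 stayed under 1% throughout. The summed convertase level was 128.2 and 119.3 TPM in LacZ and 126.3 and 139.9 TPM in sh60. These shares restate the differences above on a per-length scale.

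**Figure D2:**
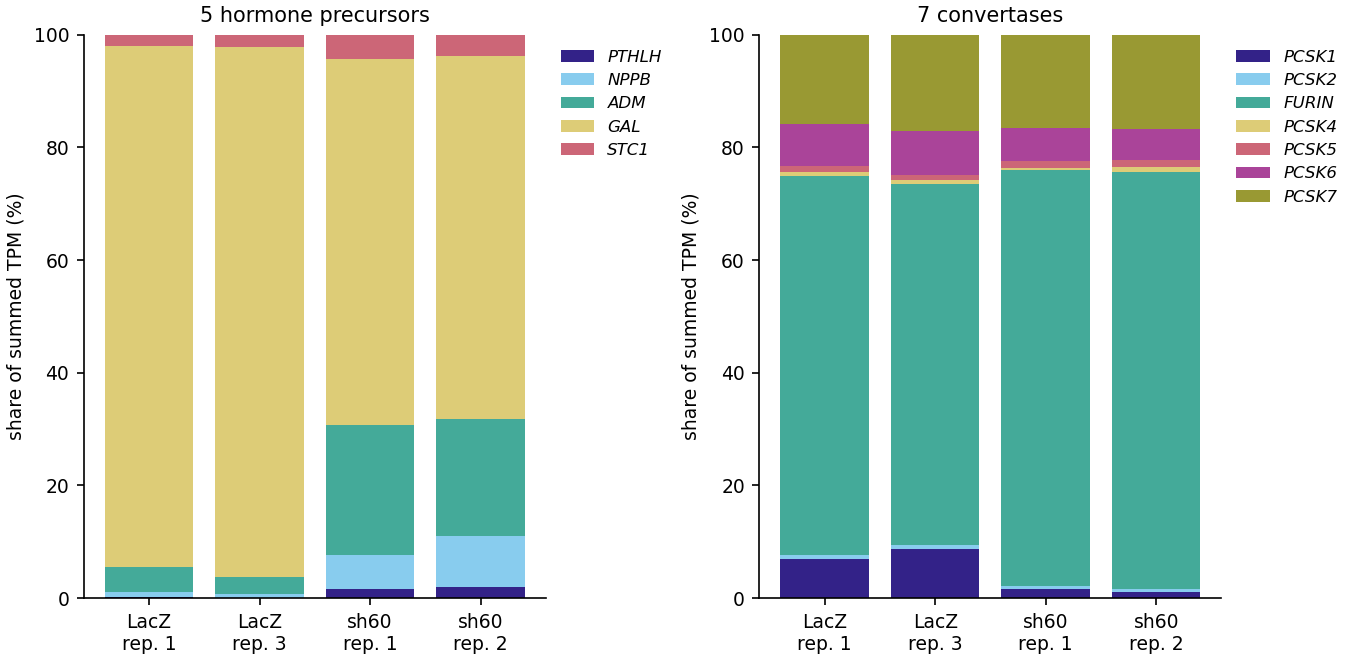
Share of summed TPM (percent) of 5 hormone precursors, left, and of 7 basic-site convertases, right, in each of the 4 libraries. GAL fills 92.4% and 94.0% of the left bars in LacZ and 64.9% and 64.4% in sh60, and the PCSK1 band at the foot of the right bars is thinner in both sh60 libraries.

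The LacZ libraries were not alike for the precursors with the widest gaps. LacZ replicate 1 was above LacZ replicate 3 in PTHLH, NPPB and ADM, that is, on the side of sh60. Counted over the 10 genes, LacZ replicate 1 was displaced towards sh60 in 5, and over all tested genes in 60.6%. Without LacZ replicate 1 the log2 fold change of PTHLH was 4.16, and without LacZ replicate 3 it was 3.31. For NPPB the lowest value was 2.61, without sh60 replicate 2, and the highest 3.46, without LacZ replicate 1. PCSK1 stayed between -2.56 and -2.31, and GAL between -0.88 and -0.74. Every one of the 10 genes kept its sign in the 4 fits that leave out 1 library.

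**Figure D3:**
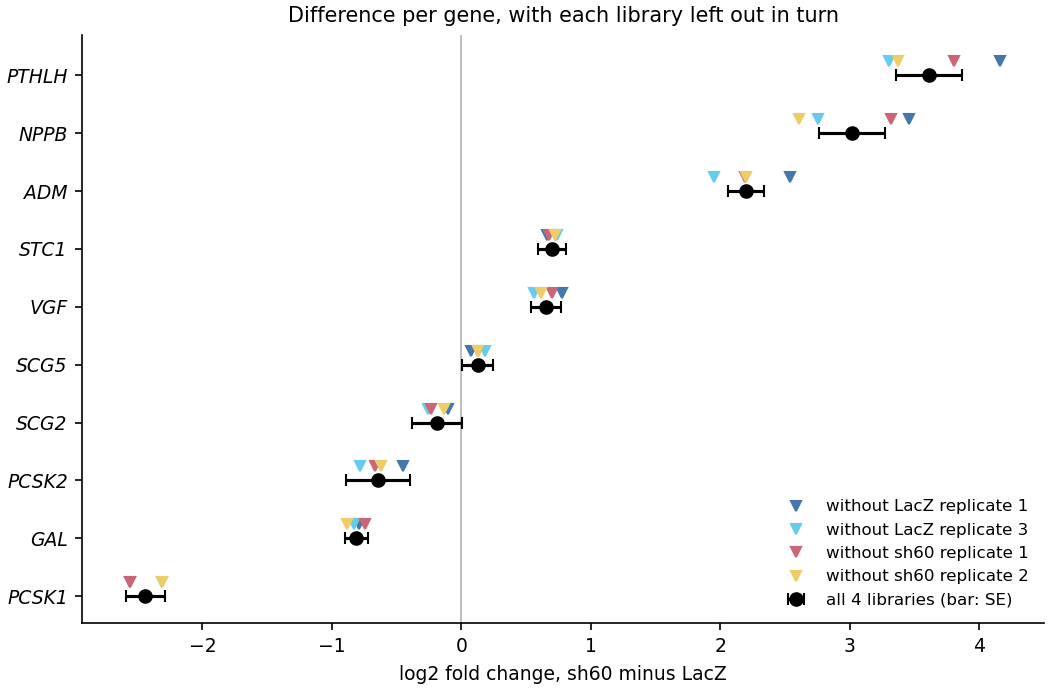
Log2 fold change of sh60 minus LacZ for each gene from all 4 libraries (black, bar = SE) and with each library left out (coloured triangles). The spread of the triangles is widest for PTHLH (3.31 to 4.16) and NPPB (2.61 to 3.46), and SCG5 and SCG2 lie next to 0.

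Receptors and clearance enzymes of these hormones were taken as a separate list. It did not enter the choice of the 10 genes, but it too was drawn up with earlier results of these data known. Of 19, 14 were tested, and by edgeR's quasi-likelihood test 2 rose and 2 fell (28.6% called, against 28.8% of all genes), with a median log2 fold change of 0.16. PTH1R, the receptor of parathyroid hormone and PTHLH, fell from 35.8 ± 1.23 to 18.9 ± 1.31 CPM (SD, n = 2 each; log2 fold change -0.92, SE 0.107, edgeR adjusted p = 4.38e-06). NPR1, the guanylyl cyclase receptor of NPPB's peptide BNP and of ANP, fell from 5.57 ± 0.356 to 1.90 ± 0.441 CPM (log2 fold change -1.53, SE 0.197, edgeR adjusted p = 1.37e-05). Both receptors were lower in each sh60 library than in each LacZ library, and both calls held in every alternative fit. PTHLH and its receptor PTH1R, and NPPB and its receptor NPR1, thus differed in opposite directions.

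The 2 that rose did so by less. ECE1, which activates endothelin and cleaves other peptides, went from 106.5 to 137.9 CPM (edgeR adjusted p = 0.00766), and ACKR3, a receptor that scavenges adrenomedullin and CXCL12, from 13.7 to 17.7 CPM (edgeR adjusted p = 0.0299). Neither held without LacZ replicate 3 (edgeR adjusted p = 0.399 and 0.361), and ACKR3 did not hold without sh60 replicate 2 (0.103) or by DESeq2 (0.0588). The adrenomedullin receptor is CALCRL paired with RAMP2 or RAMP3. CALCRL had 20 and 6 counts in LacZ and 24 and 15 counts in sh60, RAMP2 went from 8.85 to 7.68 CPM, and RAMP3 had 11 to 21 counts, none of them past the test. GALR2, a galanin receptor, measured 0.903 CPM in LacZ and 1.46 CPM in sh60 (edgeR adjusted p = 0.0731), and GALR1 and GALR3 were too low to test, with at most 9 counts.

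The other tested members of this list did not pass. RAMP1 measured 0.748 CPM in LacZ and 1.21 CPM in sh60, and NPR2, the receptor of C-type natriuretic peptide, 10.9 and 12.9 CPM. Neprilysin (MME), which degrades natriuretic peptides, measured 9.08 and 11.1 CPM, and insulin-degrading enzyme (IDE) 95.8 and 87.6 CPM, which passed without sh60 replicate 1 (edgeR adjusted p = 0.0141). ECE2 measured 5.11 and 4.17 CPM and DPP4 3.39 and 2.90 CPM. NPR3, the clearance receptor, PTH2R and CORIN, which activates natriuretic peptides, were not tested, with at most 17 counts in a library.

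Among other granins and processing enzymes, 7 of 21 tested genes rose, 3 fell and 11 did not pass (47.6% called, against 28.8% of all genes; median log2 fold change 0.13). CPE, the carboxypeptidase that trims peptide hormones after the convertases, rose from 63.4 ± 13.8 to 124.2 ± 3.56 CPM (SD, n = 2 each; log2 fold change 0.97, edgeR adjusted p = 5.57e-06). PAM, the amidating enzyme, rose 1.51-fold from 51.4 to 77.7 CPM. CPE and PAM, which act after the convertases, thus differed in the opposite direction to PCSK1. The gene for carboxypeptidase M, whose symbol is the same as the unit, rose 3.45-fold from 1.24 to 4.34 CPM. CTSL, cathepsin L, rose 1.62-fold to 105.2 CPM, and CPZ, another carboxypeptidase, 1.57-fold to 38.5 CPM. The remaining risers were PCSK1N (log2 fold change 0.59, edgeR adjusted p = 0.0266) and the convertase PCSK5 (log2 fold change 0.46, edgeR adjusted p = 0.0475). Both were named after their values were seen. Neither PCSK1N nor PCSK5 kept its call without LacZ replicate 3, and their other alternative fits are not given.

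The 3 that fell were SCG3, PCSK6 and QPCT, the last 2 named after their values were seen. SCG3, secretogranin III, which binds granins to the granule membrane, went from 64.3 to 44.1 CPM (log2 fold change -0.54). PCSK6, a furin-like convertase, went from 24.1 to 18.0 CPM, and QPCT, which makes the N-terminal pyroglutamate of some hormones, from 0.715 to 0.250 CPM. Without LacZ replicate 3 the counts of this list dropped to 3 higher and 1 lower, and by DESeq2 they were 4 and 2. PAM (edgeR adjusted p = 0.0768), CPZ (0.0729), SCG3 (0.0562) and PCSK6 (0.0709) were lost without LacZ replicate 3. PCSK6 (0.0815) and QPCT (0.144) were lost without LacZ replicate 1, QPCT without sh60 replicate 2 (0.147), and CPZ by DESeq2 (0.102).

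Of 24 tested genes of dense-core granule formation and release, 7 rose, 3 fell and 14 did not pass (41.7% called, against 28.8% of all genes; median log2 fold change 0.37). PTPRN, also called IA-2, a membrane protein of the granule, rose 3.76-fold from 9.29 ± 2.27 to 35.3 ± 4.17 CPM (SD, n = 2 each; edgeR adjusted p = 4.79e-08). SNAP25, a fusion protein of the plasma membrane, rose 5.09-fold to 6.53 CPM. CADPS, the priming factor of granule release, rose 1.53-fold to 30.8 CPM and RAB3B, a GTPase of secretory vesicles, 1.35-fold to 141.0 CPM. The remaining risers were SYT1, RAB27B and VAMP2 (log2 fold change 0.57, 0.99 and 0.48). They were named after their values were seen, and their alternative fits are not given.

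The 3 that fell were SYT7, a calcium sensor of exocytosis, from 10.6 to 4.42 CPM, UNC13A, a vesicle priming factor, from 162.4 to 100.2 CPM, and PTPRN2, the paralog of PTPRN, from 3.75 to 2.32 CPM. PTPRN2 was named after its value was seen. PTPRN and its paralog PTPRN2 thus differed in opposite directions. Leaving out LacZ replicate 3 ended the RAB3B call (edgeR adjusted p = 0.0992). The call of PTPRN2 ended on leaving out LacZ replicate 1 (edgeR adjusted p = 0.0612) and by DESeq2 (0.0637). With LacZ replicate 3 left out, 5 of the list rose and 3 fell.

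**Figure D4:**
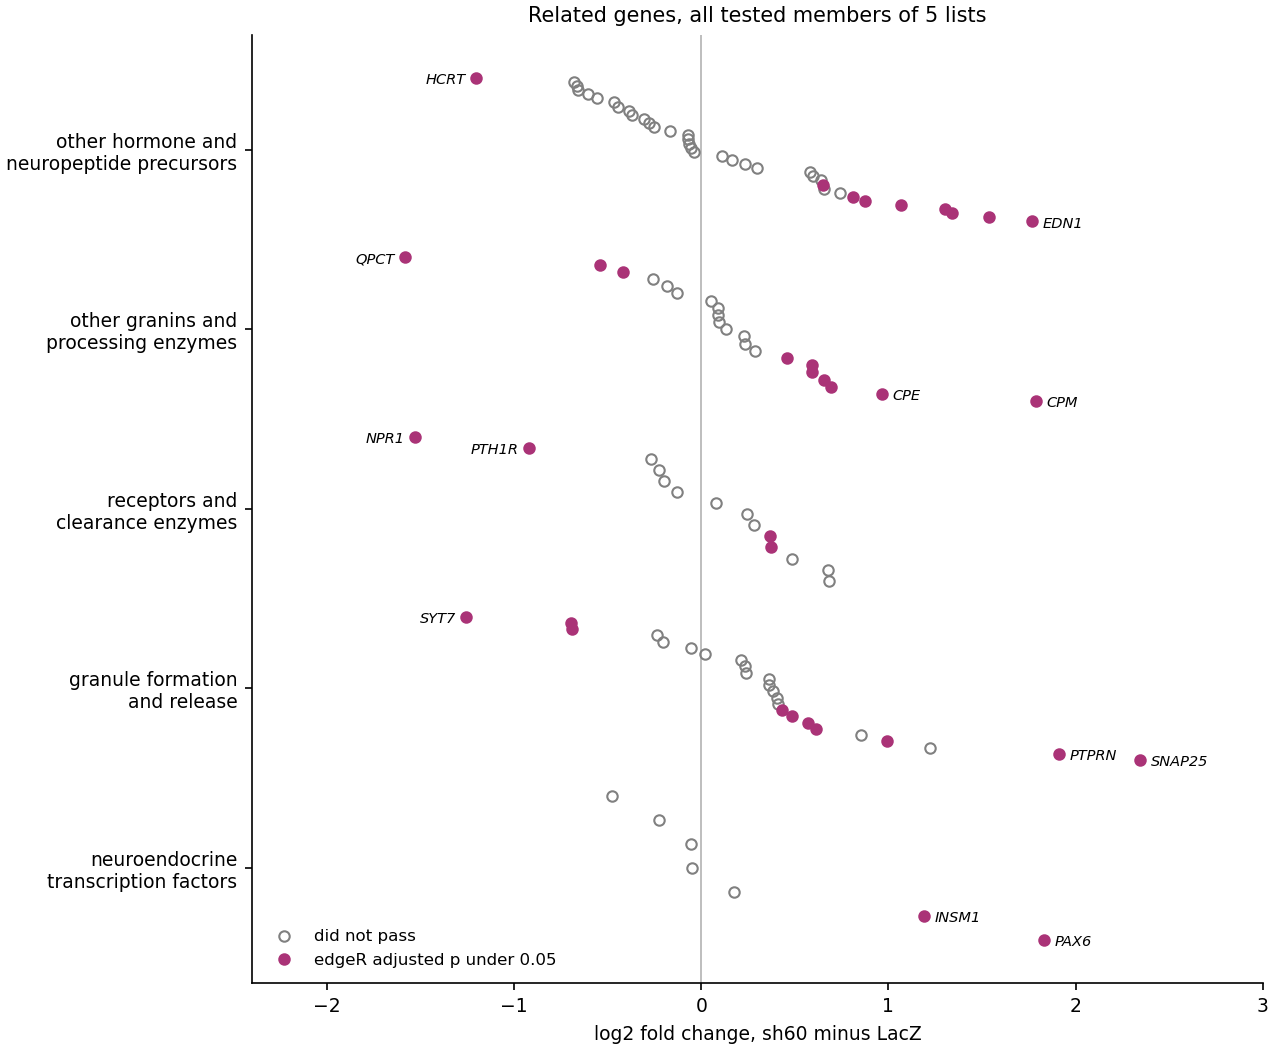
Log2 fold change, sh60 minus LacZ, of every tested gene in 5 lists of related genes; filled points passed an edgeR adjusted p of 0.05 and open points did not. Filled points stand on both sides of 0 in 4 of the lists, with SNAP25 and PTPRN the filled points farthest to the right and QPCT and NPR1 those farthest to the left.

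Of 74 other peptide hormone and neuropeptide precursors, 36 had enough counts to test and 13 had 0 counts in every library. By the edgeR test 8 rose, 1 fell and 27 did not pass (25.0% called, against 28.8% of all genes; median log2 fold change -0.045). EDN1, endothelin 1, a vessel-constricting peptide, rose 3.41-fold from 1.83 ± 0.429 to 6.32 ± 1.18 CPM (SD, n = 2 each; edgeR adjusted p = 4.59e-06), and APELA, a peptide of early embryos and pluripotent cells that acts on the apelin receptor, rose 2.47-fold to 35.5 CPM. STC2, the paralog of STC1, rose 1.75-fold from 10.5 to 18.4 CPM, close to the 1.62-fold difference of STC1. NTS, neurotensin, rose 1.57-fold to 104.6 CPM and UCN2, urocortin 2, 2.09-fold to 5.97 CPM. The 1 that fell was HCRT, the orexin precursor, from 0.786 to 0.342 CPM on 12 to 34 counts, and it did not pass when any 1 library was left out (edgeR adjusted p = 0.0721 to 0.132).

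Most transcription factors of neuroendocrine cells were low, apart from the repressor REST and from PROX1. PROX1 measured 7.22 and 7.15 CPM in LacZ and 6.61 and 5.74 CPM in sh60, and did not pass. Of the factors tested, 28.6% were called, against 28.8% of all genes. Of 14 genes 7 were tested, 2 rose and 0 fell by the edgeR test (0 fell at an unadjusted p under 0.05, by DESeq2 or by limma-voom, and 1, REST, without sh60 replicate 1; median log2 fold change -0.048), and NEUROD1, NKX2-2 and RFX6 had 0 counts in every library. INSM1, a zinc finger factor of endocrine cells, went from 0.686 to 1.65 CPM, and PAX6 from 0.126 to 0.449 CPM on 4 to 22 counts. INSM1 was lost by DESeq2 (adjusted p = 0.0557) and, with edgeR, on leaving out LacZ replicate 3 (0.118) or sh60 replicate 2 (0.0515), and PAX6 without LacZ replicate 1 (0.122), LacZ replicate 3 (0.0688) or sh60 replicate 2 (0.120). REST, which represses granin and other neuronal genes outside the nervous system and is named here after its value was seen, did not pass, at 180.3 CPM in LacZ and 173.8 CPM in sh60 (edgeR adjusted p = 0.727), but it passed as lower without sh60 replicate 1 (log2 fold change -0.23, edgeR adjusted p = 0.00406).

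The nearest tested gene on each side of each of the 10 genes was also looked up in the files' hg19 coordinates. Of these 20 neighbours, 8 rose, 4 fell and 8 did not pass (60% called, against 28.8% of all genes). The 20 lay between 1.23 kb (AP1S1) and 653.5 kb (ACSL3) from the gene they flank, with CAST at 228.8 kb and CCDC91 at 285.2 kb. Of the 12, 10 had the sign of the gene they flank, a sign known when the 10 genes were chosen. GREM1 counts as agreeing, although SCG5, which it flanks, differed by only about its error. The share for all pairs of adjacent genes was not computed. GAL, lower in sh60, lies between PPP6R3 and MTL5, which fell, PPP6R3 from 146.1 to 123.7 CPM and MTL5 from 28.5 to 20.9 CPM. VGF lies between AP1S1 and PLOD3, which rose, AP1S1 from 60.4 to 77.1 CPM and PLOD3 from 63.9 to 88.8 CPM, and PTHLH between KLHL42, which rose from 145.4 to 188.8 CPM, and CCDC91, which rose from 46.0 to 58.0 CPM. Beside PCSK1 the sign was opposite, since CAST rose from 56.2 ± 6.83 to 103.7 ± 4.79 CPM (SD, n = 2 each; edgeR adjusted p = 2.94e-06).

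GREM1, a BMP antagonist next to SCG5, rose from 23.1 to 44.4 CPM, 1.91-fold (edgeR adjusted p = 3.87e-05), while ARHGAP11A on the other side of SCG5 fell from 148.8 to 120.1 CPM. KIAA2013 beside NPPB rose from 44.4 to 58.6 CPM, AMPD3 beside ADM rose from 4.02 to 5.59 CPM, and BFSP1 beside PCSK2 fell from 9.55 to 7.20 CPM. Of the 12 calls, those of CAST and GREM1 held in every alternative fit. Leaving out LacZ replicate 3 ended the other 10 (edgeR adjusted p = 0.0797 to 0.441).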

How the data were processed

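The authors deposited 1 table of read counts per gene for each of 4 NTERA2 libraries. The aligner was STAR 2.7.6a and the build hg19, per the submitters' processing notes, and reads over exons were counted with featureCounts 2.0.0 at strand setting 2, per the file headers. No option for multi-mapping reads appears in that command, so genes with near-identical copies are uncertain.

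Groups and replicate numbers came from the library titles. Counts were fitted with edgeR 4.0.16 (R 4.3.3; quasi-likelihood test, TMM scaling, filterByExpr, group as the only term, all 4 libraries), with Benjamini-Hochberg adjustment over 16040 genes and a threshold of 0.05. On simulated data for this comparison (15875 genes) it recovered 79 of 100 genes changed 1.5-fold and 98 of 100 changed 2-fold, with 2 of 15675 unchanged genes called. Changes were simulated only in genes with a mean of at least 1 CPM. All genes were given the same variability between replicates, without the gap seen between the LacZ libraries. These rates therefore do not apply to lower genes or to genes that vary more. The 10 genes and all lists were chosen with earlier results of these data known. Of each list up to 6 called genes with the smallest p were named, all tested receptors and clearance enzymes, and called neighbours. Alternatives were other scalings, DESeq2 1.42.0, limma-voom (limma 3.58.1), no count filter, 1 CPM in 2 libraries, and each library left out. Each SE is the size of the log2 fold change divided by the square root of the F statistic of the edgeR test. It thus carries the same information as that test, also for the 10 genes, for which no p is given. TPM was computed from counts and the files' exon lengths. Replicates number 2 per group, which limits every SD. Promoters came from RefSeq on GRCh38.p14, and no coordinate was moved between builds.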

Additional observations from a re-analysis of the deposited data

How the results depend on the processing

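The 10 hormone, granin and convertase genes kept their direction in all 11 alternatives, and in each 4 of them differed by at least 1 on the log2 scale. Leaving out LacZ replicate 1 moved PTHLH, ADM, VGF and PCSK2 by more than the spread between replicates (to 4.16, 2.54, 0.78 and -0.45). Of 102 related genes tested, 26 rose and 9 fell (34.3% called, against 28.8% of all genes). DESeq2 gave 17 and 6, and leaving out each library gave 14 to 29 higher, lowest without LacZ replicate 3, and 7 to 12 lower. Over all genes the number called, 4624, ran from 2287 without LacZ replicate 3 and 2968 without LacZ replicate 1 to 5486 without sh60 replicate 1. The cause was not tested, and these fits rest on 1 library in an arm that is assumed to vary like the other group. With library totals only, 2816 genes rose and 1870 fell, with upper-quartile scaling 2424 and 2575, against 2540 and 2084. The PPP6R3 call was lost with library totals (edgeR adjusted p = 0.0668). No paired analysis was possible because the groups share only 1 replicate number. Counts of 33 and 13 for PTHLH in LacZ limit the precision of its fold.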

Other observations

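Close relatives of the hormone genes were looked at after their values were seen. NPPA, which encodes atrial natriuretic peptide and lies beside NPPB, had 2 and 2 counts in LacZ, against 7 and 12 counts in sh60, too few to test. NPPC, the third natriuretic peptide gene, measured 0.451 and 0.299 CPM in LacZ and 0.440 and 0.464 CPM in sh60. ADM2, the relative of ADM, did not pass, at 2.18 and 2.36 CPM in LacZ against 1.498 and 1.97 CPM in sh60, whereas ADM was 4.59-fold higher in sh60. PTH, the relative of PTHLH, had 0 counts in every library. The granins CHGA and CHGB measured 3.67 and 19.1 CPM in LacZ and 3.34 and 19.8 CPM in sh60, and neither passed.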
